A study of Homo sapiens with 18 samples.

Results

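Secreted signals were followed across a GPS2 knockout study in breast cancer cells, the CXC chemokines CXCL1, CXCL2, CXCL3 and CXCL8, the CC chemokines CCL2, CCL5 and CCL20, and the IL6 family cytokines IL6, LIF and IL11. They were chosen by gene symbol, and all 10 had a row among the 57448 rows of the deposited count matrix. RNA had been sequenced from MDA-MB-231 cells, a triple negative breast cancer line, with 3 replicates in each of 6 groups. WT was the unmodified parental line. KO1 and KO2 were separate pools of GPS2 knockout cells made by CRISPR-Cas9, each with its own sgRNA set (sgRNA set 1 and sgRNA set 2) delivered by lentivirus, and they were pools rather than clones. MB231-myrAKT (myrAKT below) was the same line carrying myristoylated AKT, a constitutively active form of the kinase, from a retrovirus, without GPS2 editing. The groups KO1+MK and KO2+MK were the knockout pools given 10 µM of MK2206, an allosteric AKT inhibitor, for 4 h, and WT, KO1, KO2 and myrAKT were untreated. WT and myrAKT cells were not treated with MK2206, so the effect of the inhibitor was measured in GPS2 knockout cells only.

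GPS2 is a subunit of nuclear corepressor complexes and restrains ubiquitin signalling in inflammatory and metabolic pathways. Chemokines are small secreted proteins that direct cell migration through G protein-coupled receptors. CXCL1, CXCL2, CXCL3 and CXCL8 bind CXCR2 and attract neutrophils, CCL2 recruits monocytes through CCR2, CCL5 attracts T cells and CCL20 acts on CCR6. IL6, LIF and IL11 bind receptors that share the signalling chain gp130 (IL6ST) and activate JAK kinases and STAT3. Genes of both families are commonly induced through NF-kB, AP-1 and C/EBP factors, and many of their transcripts carry AU-rich elements that shorten RNA half-life.

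The promoters of 6 members are shown because the RNAs of the CXC chemokines and IL6 moved alike, and that of IL11 differently, as described further on. Each sequence is the 150 bases before the RefSeq start of the gene (assembly GRCh38.p14), read 5′ to 3′ on the strand of the gene. The table of promoters matched 7 of 10 members and had none for CCL2, CCL5 or LIF. Capitals mark matches, on either strand, to the NF-kB consensus, to its core GGAATTTCC and to the AP-1 motif TGANTCA, and matches that overlap are merged into 1 run.
CXCL1: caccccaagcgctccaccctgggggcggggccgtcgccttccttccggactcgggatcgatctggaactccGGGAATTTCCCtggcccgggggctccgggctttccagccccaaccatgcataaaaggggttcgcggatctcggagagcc
CXCL2: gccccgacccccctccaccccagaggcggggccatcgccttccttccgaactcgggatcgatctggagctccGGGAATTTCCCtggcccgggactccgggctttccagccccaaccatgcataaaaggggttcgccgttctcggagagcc
CXCL3: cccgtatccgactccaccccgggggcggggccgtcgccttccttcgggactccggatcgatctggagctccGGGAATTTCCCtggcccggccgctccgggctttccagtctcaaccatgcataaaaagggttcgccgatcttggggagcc
CXCL8: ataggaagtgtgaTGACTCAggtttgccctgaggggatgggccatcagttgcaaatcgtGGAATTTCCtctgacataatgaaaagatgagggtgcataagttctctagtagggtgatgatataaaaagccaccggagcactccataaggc
IL6: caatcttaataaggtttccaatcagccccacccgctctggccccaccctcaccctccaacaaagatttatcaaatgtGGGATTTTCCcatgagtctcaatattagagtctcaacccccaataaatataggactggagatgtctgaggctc
IL11: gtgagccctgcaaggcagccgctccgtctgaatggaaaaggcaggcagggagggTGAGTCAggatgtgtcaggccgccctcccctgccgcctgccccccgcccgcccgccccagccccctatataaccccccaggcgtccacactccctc
The windows lie at chr4:73869243-73869392 (plus strand), chr4:74099196-74099345 (minus), chr4:74038690-74038839 (minus), chr4:73740419-73740568 (plus), chr7:22727050-22727199 (plus) and chr19:55370464-55370613 (minus). None of their bases was in an exon of the canonical transcript of its gene in GENCODE release 44, while 118 bases of the CXCL3 window, 53 of the IL6 window and 50 of the CXCL8 window were exonic in another transcript. CXCL1, CXCL2 and CXCL3 each held 2 overlapping NF-kB consensus matches, which began 79 bases before the start in CXCL1 and CXCL3 and 78 in CXCL2. CXCL8 held the core alone, without a full consensus match, and an AP-1 match upstream of it. IL6 held a different NF-kB consensus match, whose first base lay 73 bases before the start, and IL11 held an AP-1 match and no NF-kB match. The remaining promoter, that of CCL20, is not shown and also held an NF-kB consensus match, which began 79 bases before the start. Among 35116 windows of this length, 6.19% held the NF-kB consensus, 4.17% the AP-1 motif and 0.253% the core. The core was searched because the CXC promoters share it, and the promoters shown were picked by their RNAs. These shares are therefore a description and not a test.

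The libraries held 23419198 to 39319910 gene counts each, with 30287210 to 39319910 in the 12 untreated libraries and 23419198 to 29939536 in the 6 libraries treated with MK2206. Depth moved with treatment, so levels are given as counts scaled by edgeR to the TMM-normalized size of each library (CPM). The MDA-MB-231 markers VIM, CD44, AXL, KRT18, CAV1 and SPARC summed to 3120 to 4220 CPM per library, but SPARC was low, at 1.65 CPM in WT and 0.912 to 5.49 over the group means. Of the markers expected to be absent or low, PGR, CDH1 and ESR1 were at 0.12, 0.0365 and 0.962 CPM in WT, GATA3 at 3.31, EPCAM at 12 and ERBB2 at 91.4. The 10 leukocyte markers summed to 2.48 to 6.14 CPM, with the highest sums in myrAKT (5.02 to 6.14 CPM). Among them the leukocyte-defining PTPRC was at 0.13 CPM in WT and 0.0613 in myrAKT. CSF1R was at 1.37 CPM in WT and 3.4 in myrAKT, and CD14 at 1.6 in WT and 0.526 in KO2. GPS2 RNA, which need not fall when a gene is edited, was 4.56 ± 0.277 CPM (SD, n = 3) in WT, 4.49 ± 0.0363 in KO1 and 6.02 ± 0.123 in KO2, so the counts do not check the knockout labels. AKT1 RNA was 135 ± 0.997 CPM in WT and 230 ± 12 in myrAKT. Nothing in the labels says that replicates were separate cultures, so p-values measure the spread between these samples, which may be technical.

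In WT cells CXCL8, IL11 and LIF were the most abundant members. Divided by the kilobases covered by the exons of each gene, CXCL8 RNA stood at 35 ± 3.64 CPM per kb (SD, n = 3), IL11 at 31.7 ± 1.73 and LIF at 26.5 ± 0.489. CXCL1 followed at 12.9 CPM per kb, CCL2 at 7.35, CXCL2 at 4.89, CXCL3 at 1.59 and IL6 at 0.858. The order was the same when the longest transcript was used as the length. CCL20 and CCL5 were close to the detection limit, with 0 to 17 and 0 to 10 counts per library over the 18 libraries, and neither reached 1 CPM in 3 libraries, so 8 of the 10 members entered the main tests. CCL5 had 7 to 10 counts in the myrAKT libraries and 0 to 1 in WT, which did not overlap. It was called higher in myrAKT in the fit without a filter on low counts (edgeR adjusted p = 0.000365), and neither gene was called in any other comparison of that fit. CCL20 had 11 to 17 counts in WT and 0 to 2 in KO2+MK.

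A gene was called changed at an adjusted p of at most 0.001 (edgeR's two-sided quasi-likelihood test, Benjamini-Hochberg adjustment over the 15587 genes tested) together with a fold change of at least 1.5. In KO1, 2 of the 8 tested members were called against WT, with CCL2 higher and LIF lower, where 4.59% of all genes tested were called higher and 9.28% lower. In KO2, 7 of 8 were lower than WT, where 11.2% of all genes were called lower and 5.56% higher, and the member not called was IL11. In myrAKT, 6 of 8 were lower, against 8.83% of all genes, and the members not called were LIF and IL11. The median log2 fold change of the 8 members was -0.09 in KO1, -1.84 in KO2 and -1.36 in myrAKT, whereas the median over all genes tested was -0.011, 0.014 and 0.016. All of them use the same 3 WT libraries, so they are not independent of each other. Fewer cells expressing a gene and less RNA per cell cannot be told apart in these bulk samples.

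CXCL8, the neutrophil attractant also known as interleukin 8, was high in WT and KO1 and low in KO2 and myrAKT. It stood at 98.8, 80.3 and 92.7 CPM in the WT libraries, at 61.3, 79.3 and 58.4 in KO1, and at 14.5, 12.7 and 14.9 in KO2. The myrAKT libraries held 20.1, 23.8 and 20.8 CPM. Every KO2 and myrAKT library lay far below every WT and KO1 library, and the highest KO1 library was just under the lowest WT library. Against WT, the log2 fold change was -2.70 in KO2 (standard error 0.0745, edgeR adjusted p = 1.92e-11), a 6.49-fold decrease, and -2.08 in myrAKT (standard error 0.0772, edgeR adjusted p = 5.21e-11). In KO1 it was -0.47 (edgeR adjusted p = 0.000418), short of the minimum fold change, and it passed when KO1 replicate 2 was left out (-0.62, edgeR adjusted p = 6.2e-06).

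CXCL1, a ligand of the same receptor, followed a like pattern at a lower level. WT libraries held 19.2, 15.3 and 18.2 CPM, KO1 libraries 12.9, 14.6 and 11.8, KO2 libraries 3.2, 2.67 and 3.05, and myrAKT libraries 2.46, 3.29 and 2.46. KO2 and myrAKT overlapped each other and lay below both other groups, and KO1 lay below WT without overlap. The log2 fold change was -2.57 in KO2 (standard error 0.103, edgeR adjusted p = 4.1e-10) and -2.69 in myrAKT (standard error 0.122, edgeR adjusted p = 3.71e-10), and in KO1 it was -0.44 (edgeR adjusted p = 0.000546), again under 1.5-fold.

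CXCL2 and CXCL3, the close paralogs of CXCL1, also fell in KO2 and myrAKT but overlapped between KO1 and WT. CXCL2 ranged from 6.32 to 7.70 CPM in WT, from 5.34 to 6.88 in KO1, from 1.72 to 2.20 in KO2 and from 2.43 to 2.59 in myrAKT. CXCL3 ranged from 3.22 to 3.95 CPM in WT, from 3.39 to 4.13 in KO1, from 0.625 to 1.05 in KO2 and from 1.32 to 1.63 in myrAKT. KO2 was the lowest untreated group for both genes, and its CXCL3 level rested on 23 to 41 counts per library. The log2 fold changes in KO2 were -1.81 for CXCL2 (edgeR adjusted p = 5.9e-08) and -2.02 for CXCL3 (edgeR adjusted p = 7.58e-07). In myrAKT they were -1.46 (edgeR adjusted p = 2.72e-07) and -1.27 (edgeR adjusted p = 1.52e-05). In KO1 they were -0.21 (edgeR adjusted p = 0.111) and 0.03 (edgeR adjusted p = 0.827). The coding sequences of CXCL1, CXCL2 and CXCL3 were 90.7 to 94.4% identical to each other and 54.0 to 55.9% identical to that of CXCL8. Of the stretches of 75 bases, the read length, in the canonical transcripts, 0.273% in CXCL1, 2.50% in CXCL2 and 2.30% in CXCL3 also occurred in another of the 4 genes, and the handling of reads with several matches was not given in the sources used here.

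**Figure D1:**
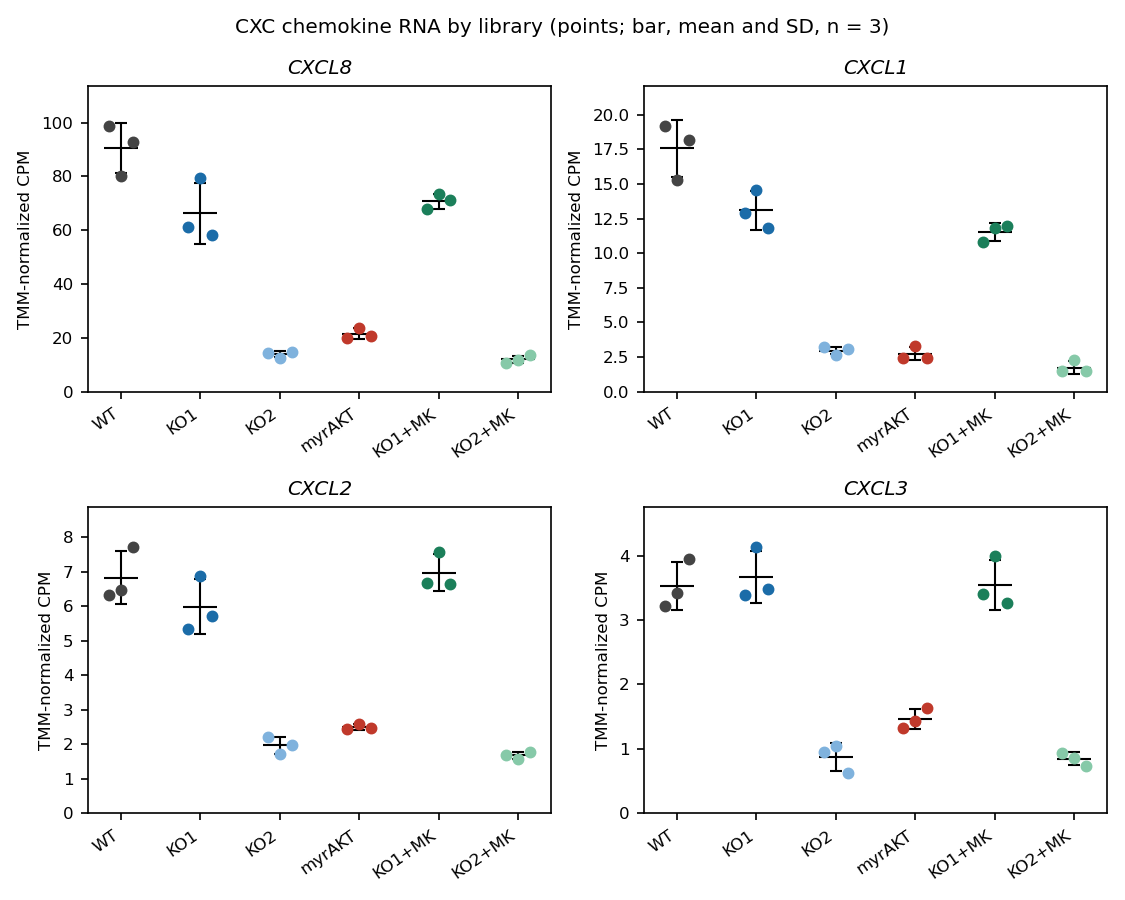
TMM-normalized CPM (y axis, linear from 0) of CXCL8, CXCL1, CXCL2 and CXCL3 in each library of the 6 groups (x axis); points are libraries and the bar is the mean with its SD (n = 3). CXCL8 in KO2 (12.7 to 14.9 CPM) and in myrAKT (20.1 to 23.8 CPM) sits below WT (80.3 to 98.8 CPM). In KO2+MK, CXCL1 (1.47 to 2.26 CPM) lies below KO2 (2.67 to 3.2 CPM).

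CCL2, the monocyte chemoattractant, was the only member called in opposite directions in the knockout pools, higher in KO1 and lower in KO2. It stood at 15, 13.7 and 13.9 CPM in WT, at 29.5, 28.1 and 37.7 in KO1, and at 9.14, 6.66 and 6.91 in KO2. No read was counted on CCL2 in any of the 3 myrAKT libraries. The groups did not overlap, with KO1 above WT, WT above KO2, and KO2 above myrAKT. Against WT, CCL2 had a log2 fold change of 1.14 in KO1 (standard error 0.0927, edgeR adjusted p = 6.49e-08), a 2.21-fold increase, and -0.92 in KO2 (standard error 0.1, edgeR adjusted p = 2.87e-06), a 1.89-fold decrease. With 3 counts per library as the limit that a count of 0 allows, CCL2 RNA was at least 162-fold lower in myrAKT than in WT, and the edgeR adjusted p was 1.69e-11. This limit and the counting error cover sampling only. The myrAKT cells are 1 infected line, and a property of that line cannot be told apart from the effect of myrAKT.

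IL6, the ligand of IL6R and gp130, was a low-abundance transcript that behaved like the CXC chemokines. It held 3.37, 3.78 and 3.97 CPM in WT, 4.26, 4.45 and 2.84 in KO1, 0.971, 0.977 and 1.09 in KO2, and 1.80, 1.86 and 2.04 in myrAKT. KO1 overlapped WT, with its 3 libraries on both sides of the WT range, and KO2 and myrAKT lay below both. For IL6 the log2 fold change was -1.88 in KO2 (standard error 0.152, edgeR adjusted p = 1.74e-07), -0.97 in myrAKT (standard error 0.149, edgeR adjusted p = 7.65e-05) and 0.04 in KO1 (standard error 0.153, edgeR adjusted p = 0.841). These levels rest on 34 to 40 counts per library in KO2 and 115 to 148 in WT. Exons of IL6-AS1, on the opposite strand, cover 428 of the 4321 exon bases of IL6. The strand setting of the counting was not given in the sources used here, and IL6-AS1 itself had a mean of 7.11 counts per library.

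LIF, which signals through LIFR and gp130, was lower in both knockout pools and not in myrAKT. It stood at 103, 101 and 104 CPM in WT, at 59.1, 60.9 and 58.3 in KO1, at 52.1, 47.5 and 56.0 in KO2, and at 106, 113 and 106 in myrAKT. Both knockout pools lay below every WT library, and all 3 myrAKT libraries lay just above WT. For LIF the log2 fold change was -0.81 in KO1 (standard error 0.035, edgeR adjusted p = 2.21e-10), -0.99 in KO2 (standard error 0.0472, edgeR adjusted p = 1.61e-09) and 0.07 in myrAKT (standard error 0.0421, edgeR adjusted p = 0.157). LIF-AS1 and LIF-AS2, on the opposite strand, share 86 and 83 of its 3871 exon bases.

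IL11, which signals through IL11RA and gp130, was the only tested member that was not lower than WT in any group mean. It held 88.3, 79.7 and 86.9 CPM in WT, 105, 97.0 and 104 in KO1, 131, 120 and 125 in KO2, and 89.8, 87.0 and 79.8 in myrAKT. KO2 lay above KO1 and KO1 above WT without overlap, while myrAKT overlapped WT. For IL11 the log2 fold change was 0.25 in KO1 (standard error 0.0437, edgeR adjusted p = 0.000168) and 0.55 in KO2 (standard error 0.0421, edgeR adjusted p = 9.96e-08), so both passed the adjusted p and neither the minimum fold change. In myrAKT it was 0.00 (standard error 0.0512, edgeR adjusted p = 0.964).

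**Figure D2:**
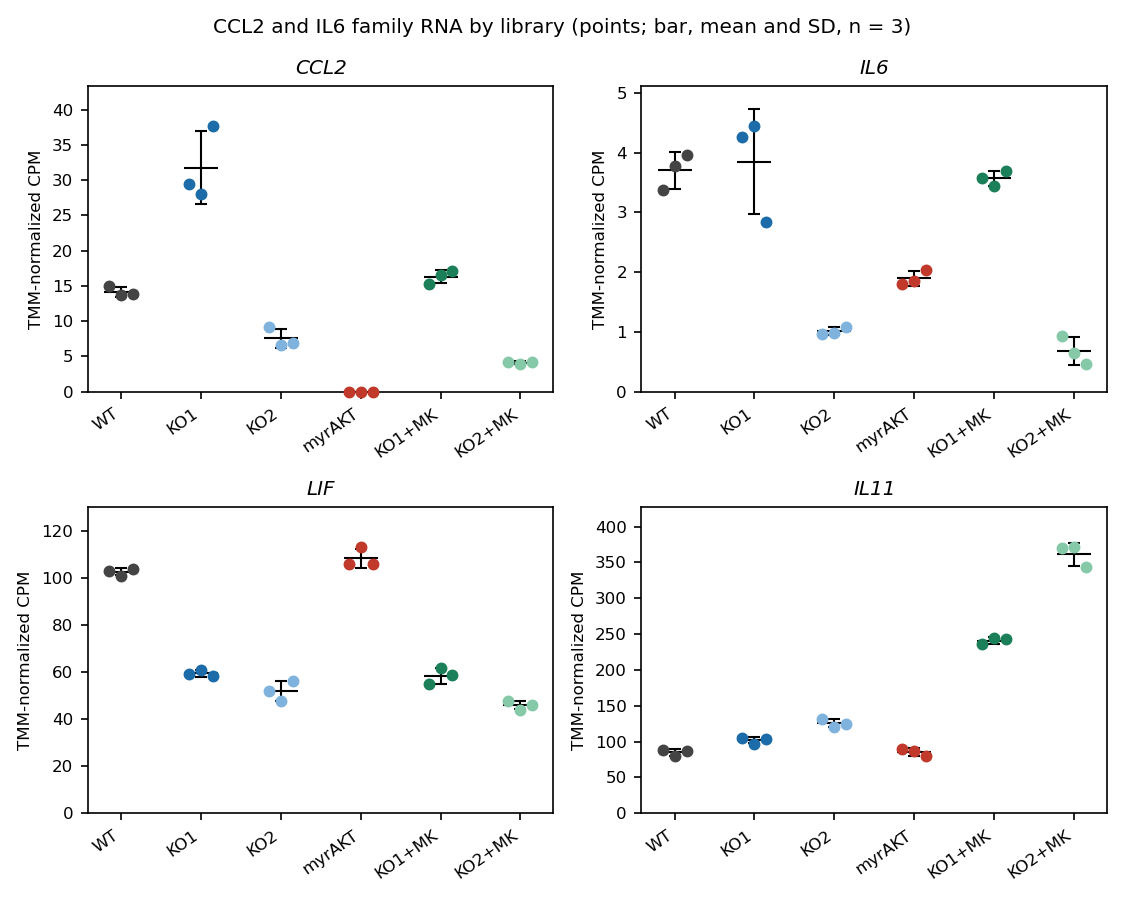
TMM-normalized CPM (y axis, linear from 0) of CCL2, IL6, LIF and IL11 in each library of the 6 groups (x axis); points are libraries and the bar is the mean with its SD (n = 3). CCL2 is at 0 in the 3 myrAKT libraries and highest in KO1 (28.1 to 37.7 CPM), and IL11 is highest in KO2+MK (343 to 371 CPM).

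The knockout lines were also compared with WT together. With KO1 and KO2 as 1 group, LIF was the only member called (log2 fold change -0.90, standard error 0.0666, edgeR adjusted p = 8.16e-07), 1 of 8 lower where 8.59% of all genes were. CXCL8 reached -1.19 with a standard error of 0.521 (edgeR adjusted p = 0.068) and CXCL1 -1.15 with a standard error of 0.482 (edgeR adjusted p = 0.0591). CCL2, which moved in opposite directions in the pools, gave 0.45 (standard error 0.531, edgeR adjusted p = 0.486). When the pools were kept as separate groups in the model and their average was contrasted with WT, 6 of 8 members were lower, where 11.2% of all genes were in that fit, namely LIF, CXCL8, CXCL1, CXCL2, CXCL3 and IL6.

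A direct test of KO1 against KO2 called 6 of 8 members, all higher in KO1, where 1.87% of all genes tested were called higher in KO1. The log2 difference was 2.23 for CXCL8 (standard error 0.0961, edgeR adjusted p = 5.06e-11), 2.13 for CXCL1 (standard error 0.102, edgeR adjusted p = 1.56e-10) and 2.06 for CCL2 (standard error 0.111, edgeR adjusted p = 5.14e-10). CXCL3, IL6 and CXCL2 differed by 2.05, 1.92 and 1.59. Every KO1 library was above every KO2 library for these 6 genes. LIF (0.19, edgeR adjusted p = 0.00614) and IL11 (-0.30, edgeR adjusted p = 6.89e-06) were not called. The median log2 difference of the 8 members was 1.98, and that of all genes tested was -0.001. The sgRNA set and any other property of the pools cannot be told apart in this comparison.

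**Figure D3:**
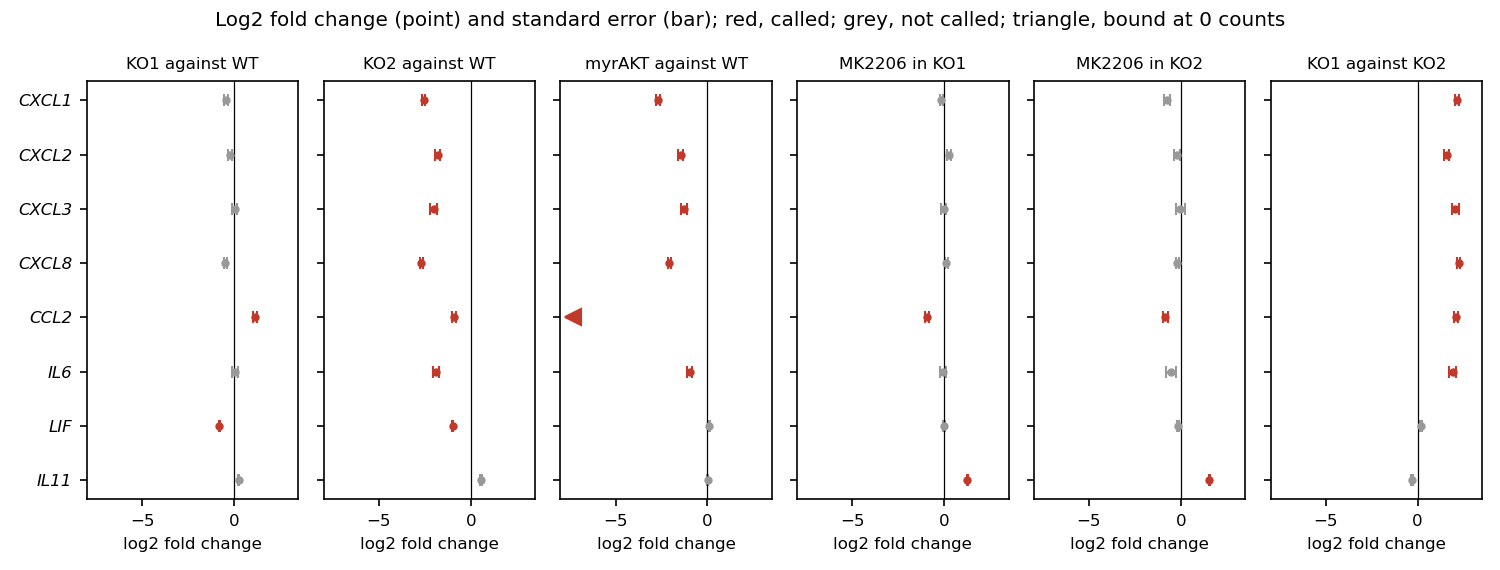
Log2 fold change (x axis, no unit) of the 8 tested members (y axis) in 6 comparisons, with the standard error as a bar; red points were called, grey points were not, and the triangle marks CCL2 in myrAKT at its bound of 162-fold lower. The CXC chemokines, CCL2 and IL6 are to the left of 0 in KO2 and myrAKT, and IL11 and CCL2 are the called members under MK2206.

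With MK2206, IL11 was higher and CCL2 lower in both knockout pools, and no other member was called. No vehicle control is named for these libraries in the sources used here. The inhibitor therefore cannot be told apart from its solvent or the handling of the treated cells. IL11 stood at 236, 244 and 243 CPM in KO1+MK and at 370, 371 and 343 in KO2+MK. Every treated library was above every untreated library of the study, and KO2+MK was above KO1+MK. The log2 fold change against the untreated pool was 1.27 in KO1 (standard error 0.0371, edgeR adjusted p = 2.27e-10), a 2.40-fold increase, and 1.55 in KO2 (standard error 0.0422, edgeR adjusted p = 1.1e-11), a 2.93-fold increase. IL11 was the only member called higher, 1 of 8 in each pool, where 3.30% of all genes were called higher in KO1 and 4.90% in KO2.

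CCL2 stood at 15.3, 16.6 and 17.1 CPM in KO1+MK and at 4.23, 3.88 and 4.24 in KO2+MK, below every library of its untreated pool. The log2 fold change was -0.93 in KO1 (standard error 0.0981, edgeR adjusted p = 7.41e-06) and -0.86 in KO2 (standard error 0.126, edgeR adjusted p = 6.08e-05). It was the only member called lower, 1 of 8 in each pool, where 1.71% of all genes were called lower in KO1 and 2.16% in KO2. The KO1+MK libraries lay just above the WT range of 13.7 to 15 CPM, while the KO2+MK libraries were further below WT than untreated KO2, and neither was tested against WT.

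The CXC chemokines and IL6 were not called under the inhibitor in either pool. CXCL8 stood at 67.8, 73.4 and 71.2 CPM in KO1+MK and at 10.8, 11.9 and 13.5 in KO2+MK, overlapping the untreated libraries in both pools (log2 fold changes 0.12 and -0.20, edgeR adjusted p = 0.283 and 0.0762). CXCL1 was lower in KO2+MK, at 1.48, 2.26 and 1.47 CPM, than in KO2, without overlap. Its log2 fold change of -0.76 (standard error 0.179, edgeR adjusted p = 0.00278) missed the threshold, and it passed without KO2+MK replicate 2 (-0.99, edgeR adjusted p = 0.000922), with all 18 libraries in 1 fit (-0.78, edgeR adjusted p = 0.000926) and without the filter on low counts (-0.76, edgeR adjusted p = 6.81e-05). IL6 stood at 3.44 to 3.70 CPM in KO1+MK and at 0.468 to 0.939 in KO2+MK, on 14 to 28 counts per library in the latter, with log2 fold changes of -0.09 and -0.54 (edgeR adjusted p = 0.698 and 0.1). LIF stood at 55.0 to 61.7 CPM in KO1+MK and 44 to 47.5 in KO2+MK, with log2 fold changes of 0.00 and -0.16 (edgeR adjusted p = 0.997 and 0.027). CXCL2 and CXCL3 had log2 fold changes between -0.21 and 0.25, with edgeR adjusted p from 0.0859 to 0.925.

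With both pools in 1 group, IL11 alone was called under MK2206 (log2 fold change 1.43, standard error 0.131, edgeR adjusted p = 1.06e-06), 1 of 8 higher where 4.50% of all genes were. CCL2 gave -0.93 with a standard error of 0.523 (edgeR adjusted p = 0.162), and it was called with the pools as separate groups in the model (-0.89), where 2.59% of all genes were called lower. The difference of the MK2206 effect between KO1 and KO2 was tested as an interaction. No member and no other gene was called by edgeR (0.00% of all genes tested), 5 of 8 members and 1251 genes had an unadjusted p under 0.05, and DESeq2 called 5 genes, none of them a member. For IL11 the effect in KO1 minus that in KO2 was -0.28 on the log2 scale (standard error 0.0579, edgeR adjusted p = 0.0486). The CXCL1 difference was 0.61 (standard error 0.191, edgeR adjusted p = 0.351) and that of CCL2 -0.08 (standard error 0.184, edgeR adjusted p = 0.938).

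Ordered by group mean, CXCL1, CXCL2, CXCL3, CXCL8 and IL6 had WT, KO1 and KO1+MK above myrAKT, KO2 and KO2+MK, and each of them had at least 1 pair of overlapping neighbours among WT, KO1 and KO1+MK. For CXCL1 the order was WT, KO1, KO1+MK, KO2, myrAKT and KO2+MK, with overlap between KO1 and KO1+MK and between KO2 and myrAKT. For CCL2 it was KO1, KO1+MK, WT, KO2, KO2+MK and myrAKT, with no overlap between neighbours. For LIF it was myrAKT, WT, KO1, KO1+MK, KO2 and KO2+MK, where KO1+MK overlapped both of its neighbours. For IL11 it was KO2+MK, KO1+MK, KO2, KO1, myrAKT and WT, where only myrAKT and WT overlapped. The highest group mean was 10.1 times the lowest for CXCL1, 7.49 times for CXCL8, 5.62 times for IL6, 4.25 times for IL11 and 2.35 times for LIF.

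For each of the 8 tested members, the other gene with the most similar log2 CPM over the 18 libraries was found by Pearson's r, as a description of libraries that share 6 groups. It was CXCL8 for CXCL2 (r = 0.99), CXCL2 for CXCL3 (r = 0.97), ULK2 for CXCL8 (r = 0.99) and MT1A, a metallothionein, for CXCL1 (r = 0.98). It was NLN for CCL2 (r = 0.992), PRSS3 for IL6 (r = 0.964), MVP, the major vault protein, for LIF (r = 0.991) and FBXO33 for IL11 (r = 0.986).

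The shares of all genes called, against which the counts of the following lists stand, were 4.59% higher and 9.28% lower in KO1, 5.56% higher and 11.2% lower in KO2, and 8.83% lower in myrAKT. With MK2206 they were 3.30% higher and 1.71% lower in KO1, and 4.90% higher and 2.16% lower in KO2. Most receptors for the chemokines did not pass the filter on low counts. Of 23 chemokine receptors listed, 4 passed, and CXCR2, CCR2 and CCR6 did not. Against WT, 2 of the 4 were higher in KO1, 1 was higher and 1 lower in KO2, and none was called in myrAKT. CCRL2, an atypical receptor, was at 30.8 CPM in WT, 50.3 in KO1 and 48.7 in KO2, and fell to 24.6 and 22.8 CPM with MK2206 (log2 fold changes -1.005 and -1.08, edgeR adjusted p = 6.68e-08 and 4.67e-09). With MK2206, 2 of the 4 receptors were called lower in KO1 and 1 in KO2. The other in KO1 was CXCR4, at 14.1 CPM in KO1 and 8.6 in KO1+MK. Of 29 other chemokine ligands, 3 passed the filter, and 1 was lower in KO1, 3 in KO2 and 1 in myrAKT. Of 14 further IL6 family ligands and receptor chains, 10 passed the filter, with 1 higher and 1 lower in KO1, 1 lower in KO2 and 2 lower in myrAKT. The latter were IL6R (log2 fold change -0.98, edgeR adjusted p = 9.59e-07) and IL6ST, the shared gp130 chain (-0.86, edgeR adjusted p = 1.16e-09). The gene called lower in both knockout pools was IL11RA, the receptor chain that binds IL11, at 4.21 CPM in WT, 2.55 in KO1 and 2.27 in KO2 (log2 fold changes -0.73 and -0.89, edgeR adjusted p = 0.000995 and 0.000247). With MK2206 IL11RA stood at 4.08 CPM in KO1 and 3.58 in KO2 (log2 fold changes 0.70 and 0.67, edgeR adjusted p = 0.00241 and 0.00319). None of the 10 was called under MK2206 in either pool alone, and in the fit with both pools IL11RA was called higher (0.69, edgeR adjusted p = 0.00037), where 4.50% of all genes were. Of 14 genes of the JAK-STAT3 pathway and its feedback, all tested, 1 was lower than WT in KO1, 1 higher and 2 lower in KO2, and 2 lower in myrAKT, which is near those shares for a list of this size. SOCS2, a feedback inhibitor of cytokine receptors, fell with MK2206 in both pools (log2 fold changes -1.10 and -1.15, edgeR adjusted p = 4.01e-08 and 2.47e-09), and 1 other, SOCS1, was called in KO2 (1.31, edgeR adjusted p = 0.000294).

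Of 14 listed inflammatory cytokines and colony-stimulating factors, 7 passed the filter, and 4 were lower in KO1, 6 in KO2 and 6 in myrAKT, with none called higher. IL1A was at 30.1 CPM in WT, 6.70 in KO1, 2.05 in KO2 and 3.48 in myrAKT, and IL1B at 68.2, 16.7, 4.46 and 40.6. Their levels in KO1 were below WT (log2 fold changes -2.19 and -2.05, edgeR adjusted p = 7.19e-10 and 6.38e-10), where IL6, CXCL2 and CXCL3 were not called. Of these 7, 5 were higher in KO1 than in KO2, IL1B (1.89) and CSF3 (1.85) most, where 1.87% of all genes were higher. MK2206 called none of them in KO1 and CSF2 alone in KO2 (-1.13, edgeR adjusted p = 7.61e-05).

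All 23 listed NF-kB, AP-1 and C/EBP factors and inhibitors passed the filter. In KO1, 1 was higher and 4 lower than WT, in KO2 11 were lower, and in myrAKT 8 were lower. RELB, an NF-kB subunit, was at 23 CPM in WT, 13.9 in KO1, 6.01 in KO2 and 10.7 in myrAKT, and TNFAIP3, the inhibitor A20, at 49.1, 38.6, 17.9 and 17.8. Both were higher in KO1 than in KO2 (log2 differences 1.202 and 1.09, edgeR adjusted p = 3.79e-09 and 1e-10), among 5 of the 23 called higher in that comparison, where 1.87% of all genes were. Under MK2206, 4 were higher in KO1, and 5 were higher and 1 lower in KO2, where 3.30% and 4.90% of all genes were called higher in KO1 and KO2 and 1.71% and 2.16% lower. FOS, an AP-1 subunit, rose from 4.13 to 14.8 CPM in KO1 and from 3.42 to 19.2 in KO2, and JUNB, another AP-1 subunit, from 23.6 to 59.5 and from 16.2 to 55.8. JUN, also an AP-1 subunit, went from 158 to 102 CPM in KO2, the 1 called lower (log2 fold change -0.62, edgeR adjusted p = 3.78e-07), and from 137 to 95.2 CPM in KO1 (-0.50, edgeR adjusted p = 4.15e-06), short of the minimum fold change. FOSL1 was at 278 and 227 CPM in KO1 and KO1+MK (edgeR adjusted p = 0.00157), and was not called in either pool.

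AU-rich elements were counted in the 3′ UTR of the canonical transcript of each member. The pentamer ATTTA occurred 14.1 times per kb in IL6, 14.0 in CXCL2, 10.4 in CXCL3, 7.77 in CXCL1, 7.19 in CXCL8, 6.34 in CCL20 and 5.54 in IL11. CCL2 (2.66) and LIF (2.19) were near the median of 1.81 over 12224 tested genes with a 3′ UTR of at least 100 bases, and CCL5 held none. The nonamer TTATTTATT occurred 6 times in IL11, 5 in CXCL2, 3 in CXCL1, 2 in LIF and once each in CXCL3 and CXCL8, and 10.2% of those genes held it. Of 14 listed regulators of cytokine RNA decay, 3 were lower than WT in KO1, 3 in KO2 and 2 in myrAKT, and with MK2206 1 was higher in KO1 and 3 in KO2, where 3.30% and 4.90% of all genes were. ZFP36 (tristetraprolin), which binds AU-rich elements and destabilizes their RNAs, was at 13.6 CPM in WT, 8.35 in KO1 and 6.60 in KO2, and rose to 14.4 and 12.8 CPM with MK2206 (log2 fold changes 0.81 and 0.97, edgeR adjusted p = 2.03e-06 and 6.39e-06). ZC3H12A, an endonuclease that degrades IL6 RNA, was lower in KO2 (-1.48, edgeR adjusted p = 1.49e-09) and myrAKT (-1.14, edgeR adjusted p = 9.33e-08).

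**Figure D4:**
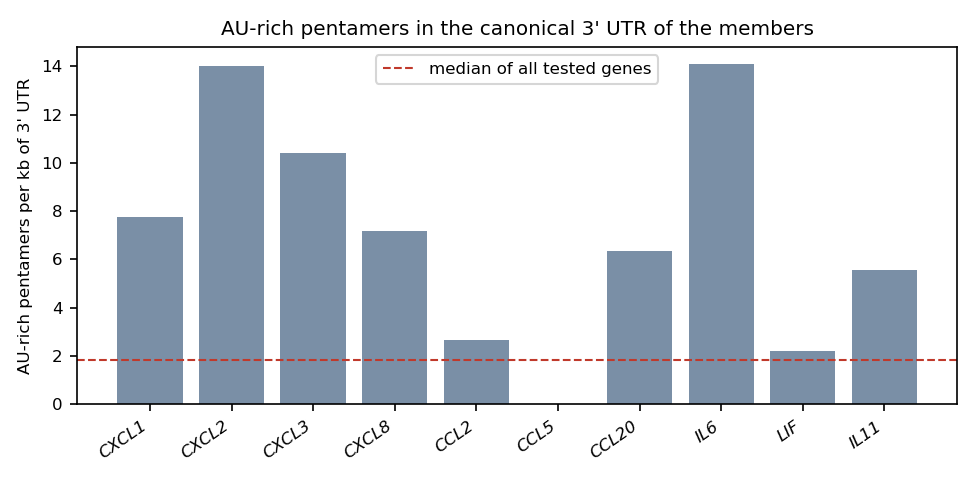
AU-rich pentamers per kb (y axis, from 0) in the canonical 3′ UTR of the 10 members (x axis), with the median over the tested genes as a dashed line. IL6 (14.1) and CXCL2 (14.0) stand highest, LIF (2.19) and CCL2 (2.66) lie near the line at 1.81, and CCL5 has none.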

How the data were processed

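The deposited values are counts, the whole number of reads that the authors assigned to each Ensembl gene, without normalization. Per the submitters' processing notes and the methods of the study, reads were trimmed with Trim Galore, aligned to hg38 with HISAT2 and counted with featureCounts, after depletion of ribosomal RNA. Tool versions, the annotation, the strand setting and the rule for reads with several matches were not given in the sources used here. Groups were taken from the sample labels. Gene symbols, positions and exon lengths came from GENCODE release 44.

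The 15587 genes that reached 1 CPM in 3 or more of the 18 libraries were tested with edgeR 4.0.16 in R 4.3.3 (TMM normalization, quasi-likelihood test), with only the groups compared in each fit, and DESeq2 1.42.0 as an alternative. The methods of the study name DESeq2. The other alternatives were other scalings, no filter, all 18 libraries in 1 fit, the pools as separate groups, a replicate block, other thresholds and the omission of each library. The fits were checked on simulated counts, where planted 2-fold changes were called in 84.2% (interaction) to 99.1% (KO1 against WT) of cases. Changes were planted only in genes above a minimum mean count, so the lowest counts were not covered. In the fits with both pools in 1 group, the pools were simulated with the same mean, so a difference between them was not covered. CPM values are TMM-normalized over all 18 libraries, and log2 CPM had a prior count of 2. Total counts ran from 23419198 to 39319910 per library, and replicates differed by more than counting error (mean chi-square per gene 2.26 to 11.6). Promoters came from RefSeq, and the NF-kB core was searched because the CXC promoters share it. Tables and plots used Python 3.11.15, pandas 2.3.3, numpy 2.4.6, Biopython 1.88 and matplotlib 3.10.9. All 10 members were named, with at most 2 called genes of each other list with the largest change in a comparison and the gene most alike each member. GPS2 and AKT1 were named as label checks, and JUN and FOSL1 after their values were seen. The members, lists and motifs were chosen with earlier results of these data known.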

Additional observations from a re-analysis of the deposited data

Results flagged for a closer look

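Of the 8 tested members, 6 were higher in KO1 than in KO2, pools each meant to lack GPS2, by a direct test. Of all genes tested, 1.87% were called higher in KO1 in that test. The log2 difference, KO1 minus KO2, was 2.23 for CXCL8, 2.13 for CXCL1, 2.06 for CCL2, 2.05 for CXCL3, 1.92 for IL6 and 1.59 for CXCL2, with all 3 KO1 libraries above all 3 KO2 libraries for each gene (largest edgeR adjusted p = 6.89e-07). CCL2 was the only one of them called against WT in both pools in opposite directions, at 1.14 in KO1 and -0.92 in KO2.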

How the results depend on the processing

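Over 72 member results, 1216 alternative values were computed, of which 1137 kept direction and side of the threshold, 22 newly passed, 57 changed sign and 0 lost a call. The other thresholds were looser and reused the main fit, so they could not lose a call or change a sign. Some of the 22 passed only such a looser threshold, and no stricter threshold was run. The members called in KO2, myrAKT, both MK2206 comparisons by pool and KO1 against KO2 kept their calls under every alternative run. Without a minimum fold change, 5 of 8 members were called in KO1 (2 higher, 3 lower). At that setting 6506 of the 15587 genes tested were called (3191 higher, 3315 lower), so such calls were common. With all 18 libraries in 1 fit, and with the pools as separate groups, 6 members were lower in both KO lines against WT. For MK2206 in both KO lines 2 were called in each of these fits (1 higher, 1 lower). In these fits the spread between the pools no longer enters the error. With the pools as separate groups, 11.2% of all genes were called lower against WT and 2.59% lower with MK2206. For the fit with all 18 libraries such shares are not given here. Sign changes were all of members not called. For IL11 in myrAKT the log2 fold change was -0.032 without a filter. For LIF with MK2206 in KO1 it was -0.004 with DESeq2 and with its size factors, -0.023 with upper-quartile scaling, -0.024 with all 18 libraries, -0.032 without a filter and -0.001 with a replicate block. It was 0.007 for CXCL3 with MK2206 in KO1 on library totals. With MK2206 in both pools, CXCL8 gave -0.06 with all 18 libraries and -0.039 with the pools as separate groups, and CXCL2 -0.002 with all 18 libraries. The CXCL3 difference between the pools' MK2206 effects was -0.008 without a filter.

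Leaving out 1 library at a time gave -0.079 to 0.212 for IL6 and -0.061 to 0.131 for CXCL3 in KO1 against WT, and -0.04 to 0.045 for IL11 in myrAKT. With MK2206 it gave -0.26 to 0.029 for IL6, -0.123 to 0.071 for CXCL3 and -0.047 to 0.024 for LIF in KO1, and -0.23 to 0.14 for CXCL3 in KO2. In both pools it gave -0.438 to 0.075 for IL6, -0.31 to 0.22 for CXCL3, -0.19 to 0.37 for CXCL8 and -0.11 to 0.36 for CXCL2. For the difference of the MK2206 effects it gave -0.16 to 0.21 for CXCL3 and -0.23 to 0.06 for CCL2.

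The same replicate numbers occur in every group, but same-numbered libraries did not deviate together (Pearson's r of -0.518 to 0.297 over 45 pairs), so the numbers were not taken to pair the samples. Between differently numbered libraries r ran from -0.468 (KO2 replicate 2, myrAKT replicate 1) to 0.591 (myrAKT replicate 3, KO1+MK replicate 1). A factor shared by such libraries was not tested. With a replicate block, the counts of members called were 2 in KO1, 7 in KO2, 1 in both pools, 6 in myrAKT, 2 with MK2206 in each pool, 1 in both, 6 for KO1 against KO2 and 0 for the interaction, as without it.

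Over all genes, the calls rose without a minimum fold change from 2162 to 6506 in KO1, 2608 to 6715 in KO2, 1974 to 5006 in both pools, 2146 to 4677 in myrAKT, 781 to 2985 and 1100 to 3416 with MK2206 in KO1 and KO2, 1018 to 3352 in both, 408 to 1964 for KO1 against KO2 and 0 to 2 for the interaction. At an adjusted p of 0.05 they were 1359 and 1661 with MK2206 in KO1 and KO2, 734 for KO1 against KO2 and 7 for the interaction. Without a filter they were 638 for KO1 against KO2 and 33 for the interaction, which also had 5 with DESeq2 and 2 without KO2+MK replicate 1. Depth limits CCL5, CCL20, and IL6 and CXCL3 in KO2 and KO2+MK, which rest on 14 to 41 counts per library.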

Other observations

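The members did not follow the treatment in 1 direction. In KO2, the pool with lower CXCL8, CXCL1, CXCL2, CXCL3 and IL6, the IL11 level was higher than in KO1, both untreated (120 to 131 CPM against 97.0 to 105) and with MK2206 (343 to 371 against 236 to 244). LIF did not separate the treated from the untreated libraries of KO1 (55.0 to 61.7 CPM against 58.3 to 60.9).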
